A study of Mus musculus with 231 samples.

Results

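MicroRNA sequencing of peripheral blood mononuclear cells (PBMC) was used to ask how blood miRNAs of control (Ctrl) mice changed between month 0 and month 6. The 14 libraries of 7 Ctrl mice at these 2 months were taken by the month and mouse number in the sample labels, and each mouse was paired with itself. They are 14 of the 76 Ctrl libraries of the training cohort and 14 of 231 libraries of the series. The series follows mice in which poly(I:C) switches on the leukemia fusion gene Cbfb-MYH11 (CM) through Mx1-Cre, a Cre recombinase driven by an interferon-inducible promoter. Month 0 is the sample before induction.

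The Ctrl mice were C57BL/6 littermates that, per the labels, lacked the transgene and received poly(I:C) like the CM mice, at 14 mg/kg per dose for 7 doses starting at 6 to 8 weeks of age. Their genotype label was CW in 4 mice, HW in 2 and WT in 1, and the codes are not explained. The study's methods count littermates that carry the Cbfb56M allele without Mx1-Cre among its controls, but do not tie a genotype to a code. There were 5 males and 2 females. The CM mice compared with them at the end had the genotype label CHW, also not explained, and were of both sexes. Between the 2 samples of a mouse lie both the poly(I:C) course and 6 months of age, and these cannot be told apart here.

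The label of mouse 3335 at month 6 is in doubt. Its library is labelled G2, whereas the libraries with the run numbers just before and after its own are labelled G5. The month 6 library of CM mouse 3334 shows the reverse, with G5 between G2 libraries. The comparison of month 6 with month 0 was therefore repeated without mouse 3335, and calls of named miRNAs and counts of lists that changed are given beside them. Counts by seed, cluster, arm and chromosome and the month by month fit were not repeated without it.

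A microRNA (miRNA) is a short RNA that guides the Argonaute complex to messenger RNAs, mainly through bases 2 to 8 at its 5′ end, the seed. A hairpin precursor gives a 5p and a 3p arm, of which 1 usually accumulates, and neighbouring hairpins are often cut from 1 transcript. Blood cell types differ strongly in miRNA content: miR-451a, miR-144 and miR-486 mark red cell precursors, miR-150 and miR-342 mature lymphocytes, miR-223 granulocytes and monocytes, and miR-142 all blood cells.

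Of 474 miRNAs with enough counts to be tested, 67 were called at an adjusted p under 0.05 (14.1% of those tested). At month 6, 31 were higher (6.54%) and 36 lower (7.59%). Counts of called miRNAs in lists, seeds and clusters below are to be read against these shares. Without mouse 3335 there were 58 calls of 476 (12.2%), 26 higher and 32 lower, and 51 of them were among the 67. All 67 fold changes kept their sign without that mouse. The count depended more on other mice, since 30 miRNAs were called without mouse 3346, 43 without mouse 3339 and 43 without mouse 3350. In 26 of the 31 higher and 29 of the 36 lower miRNAs all 7 mice moved the same way, compared with 85 of all 474 (17.9%). The month 6 and month 0 libraries did not overlap for 9 of the higher and 15 of the lower miRNAs, compared with 25 of all 474 (5.27%). The 67 were chosen by a paired test on these same libraries and are part of the 474. Both counts therefore describe the calls and are not separate support for them.

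Mature sequences of the miRNAs that carry these results are shown first, since several called miRNAs share a seed. They are from RefSeq (GRCm38.p6), which held 1 mature sequence for 384 of the 474 tested and 60 of the 67 called miRNAs, and the seed is in capitals. Of the 6 tested miRNAs with the seed AGCAGCA, 3 were called, all higher at month 6, and miR-16-5p, the most abundant of that seed, is given for comparison:
miR-15b-5p: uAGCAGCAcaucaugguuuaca
miR-195a-5p: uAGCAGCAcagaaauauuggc
miR-497a-5p: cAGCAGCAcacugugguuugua
miR-16-5p: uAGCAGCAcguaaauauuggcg

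Also higher were 2 of the 3 tested miRNAs with the seed ACCCGUA, and 3p arms of let-7 hairpins, of which let-7a-1-3p and let-7b-3p share a seed and let-7f-2-3p differs from it in the last base:
miR-99a-5p: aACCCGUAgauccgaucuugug
miR-99b-5p: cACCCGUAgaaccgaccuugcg
let-7a-1-3p: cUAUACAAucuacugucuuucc
let-7b-3p: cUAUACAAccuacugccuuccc
let-7f-2-3p: cUAUACAGucuacugucuuuc

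Among the lower miRNAs, miR-20b-5p and miR-106a-5p were the 2 called of 6 tested with the seed AAAGUGC (median log2 fold change of the 6 0.27), and miR-363-3p and miR-32-5p the 2 called of 5 with AUUGCAC (median 0.10). Both miRNAs tested with the seed UUGGGAA were called lower, while miR-223-3p, miR-342-3p and miR-298-5p had the seeds of no other called miRNA:
miR-20b-5p: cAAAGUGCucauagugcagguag
miR-106a-5p: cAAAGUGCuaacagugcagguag
miR-363-3p: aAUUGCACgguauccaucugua
miR-32-5p: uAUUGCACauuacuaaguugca
miR-450b-3p: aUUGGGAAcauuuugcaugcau
miR-450a-1-3p: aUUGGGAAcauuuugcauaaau
miR-223-3p: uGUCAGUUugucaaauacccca
miR-342-3p: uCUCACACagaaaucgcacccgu
miR-298-5p: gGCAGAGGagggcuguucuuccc

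Total counts per library ranged from 4067363 to 5549432 at month 0 and from 2470941 to 4963271 at month 6. All 7 mice had fewer counts at month 6, by 0.45 on the log2 scale on average (exact paired permutation test, two-sided, p = 0.0156, the smallest that 7 mice allow, BH-adjusted p = 0.0469 over 6 measures). The number of miRNAs with at least 1 count was also lower in all 7 mice, with 903 to 1001 compared with 960 to 1039 (exact paired permutation p = 0.0156, adjusted p = 0.0469). Depth therefore moved with the month in every mouse. When the log2 total count was added as a covariate to the fit of the 14 libraries, 0 of 474 miRNAs were called, with 81 at an unadjusted p under 0.05 and a smallest adjusted p of 0.0537 (edgeR). The median fold change stayed at 1.04 for the 31 higher and -1.08 for the 36 lower miRNAs, compared with 1.00 and -1.23 without the covariate, while the median standard error rose from 0.21 to 0.37. With the same covariate in a fit over all 76 Ctrl libraries, 67 miRNAs of 596 were called higher and 66 lower at month 6, including 54 of the 67.

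The miR-15/16 family limits proliferation and survival of blood cells by repressing cyclins and BCL2. In its list, 4 of 11 tested miRNAs rose and 0 fell, with a median log2 fold change of 0.48, compared with 0.03 over all 474 miRNAs tested. The level of miR-15b-5p was between 1538 and 2409 CPM (counts scaled to library size by TMM, median 1819.8) at month 0 and between 2787 and 6632 CPM (median 4521) at month 6. The groups did not overlap, and the log2 fold change was 1.29 ± 0.22 (SE; 7 pairs, adjusted p = 0.0066). Mouse 3335 had the highest miR-15b-5p level at month 6, and the fold change was 1.22 without it (adjusted p = 0.0197).

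Both hairpins of the cluster on chromosome 11 (GRCm38.p6, 70234717 to 70235135, plus strand) gave a called miRNA. The range of miR-195a-5p was 72.6 to 105.01 CPM (median 88.9) at month 0 and 108.02 to 282 CPM (median 166) at month 6, a log2 fold change of 1.03 ± 0.22 (adjusted p = 0.0163). Its partner miR-497a-5p went from 7.89 to 26.1 CPM (median 14.5) to 23.02 to 57.8 CPM (median 40.0), by 1.44 ± 0.33 (adjusted p = 0.0193). Month 6 was above month 0 in all 7 mice for both, and only the miR-497a-5p groups overlapped. In contrast, miR-16-5p spread from 3065 to 46078 CPM at month 0 and from 2833 to 68469.9 CPM at month 6, and its difference of 1.18 ± 1.01 was not larger than the variation among mice (adjusted p = 0.458). It has 2 genomic copies and was higher at month 6 in only 4 of 7 mice. The fourth member called, miR-16-1-3p, was 0.76 ± 0.20 higher (adjusted p = 0.0323), but its mean differed by more than 4 times between the 2 deposited tables and is uncertain.

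**Figure D1:**
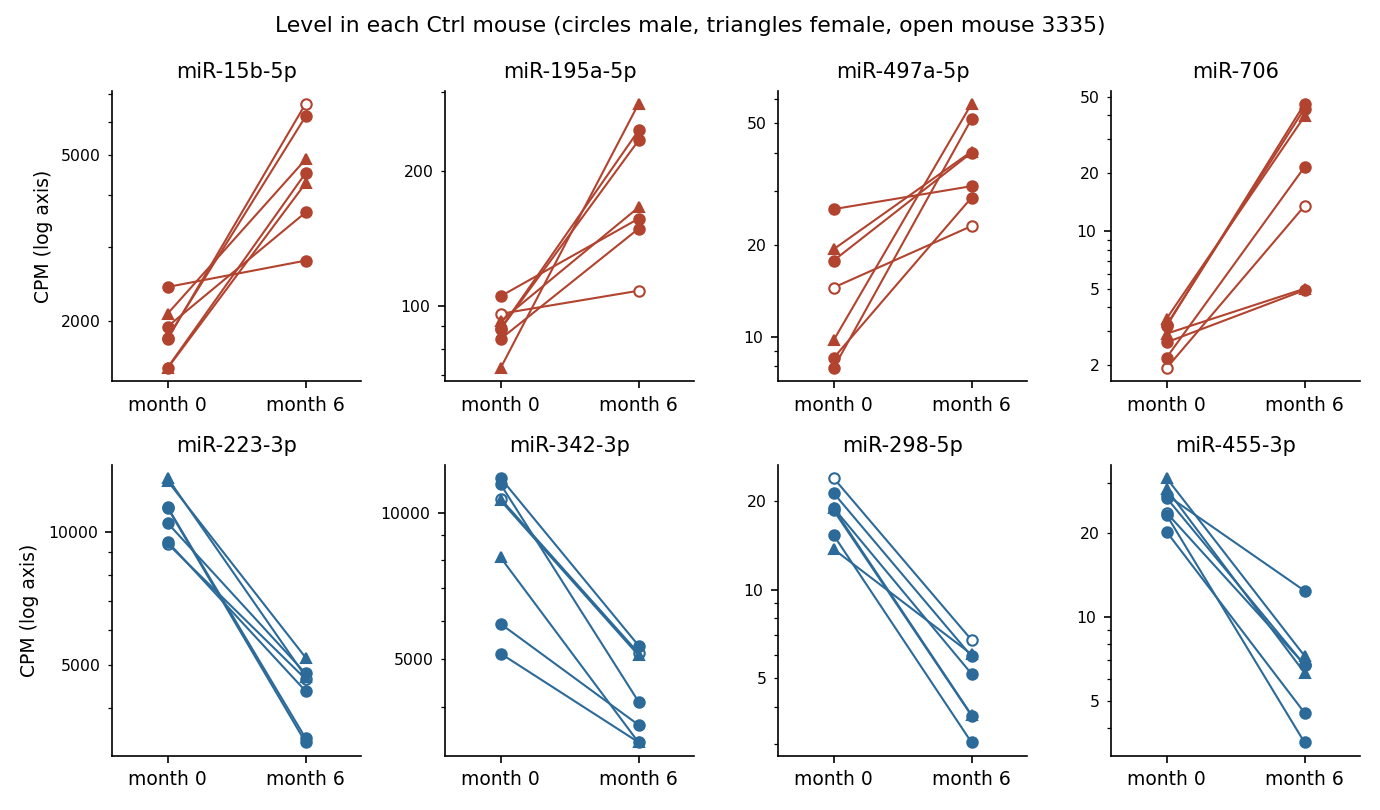
Level of 8 called miRNAs in CPM (log axis) in each of the 7 Ctrl mice at month 0 and month 6, with a line for each mouse, circles for males, triangles for females and open symbols for mouse 3335. All lines of the upper 4 miRNAs rise and all lines of the lower 4 fall, and the 2 months overlap only for miR-497a-5p and miR-342-3p.

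The largest increase was that of miR-706, whose function is little known, by 2.75 ± 0.45 (adjusted p = 0.0066). It was a low miRNA, with 1.93 to 3.49 CPM (10 to 15 counts, median 2.92 CPM) at month 0 and 4.92 to 45.9 CPM (at least 20 counts, median 21.5 CPM) at month 6. Its groups did not overlap, but 2 mice stayed near 5 CPM at month 6. Next was miR-5121 at 20.0 to 48.8 CPM (median 24.7) and 24.3 to 554 CPM (median 183.3), by 2.54 ± 0.52 (adjusted p = 0.0125). The 2 deposited tables differed by more than 4 times for miR-5121, so its level is uncertain.

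Of the abundant higher miRNAs, miR-30a-5p, which targets the autophagy gene Beclin 1, ranged from 776 to 2749 CPM (median 1139) at month 0 and from 1876 to 7458 CPM (median 3285) at month 6. It was higher in all 7 mice, by 1.35 ± 0.30 (adjusted p = 0.0169), and the groups overlapped. In the miR-30 family list it was the only 1 of 11 called (9.09%, compared with 14.1% of all 474), with a median of 0.19 for the list. Similarly, miR-339-5p went from 202 to 551 CPM (median 370) to 299.02 to 1096 CPM (median 859), by 1.08 ± 0.23 (adjusted p = 0.0161) and up in all 7 mice.

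The miR-99 and miR-100 family, which represses mTOR and is abundant in stem and progenitor cells, had 2 called 5p arms. Levels of miR-99b-5p were 418 to 664 CPM (median 564) at month 0 and 660 to 1551 CPM (median 751) at month 6, a difference of 0.78 ± 0.18 (adjusted p = 0.0201). The other arm of the same hairpin, miR-99b-3p, rose by 1.10 ± 0.18 (adjusted p = 0.0066), from 4.68 to 9.78 CPM to 10.8 to 21.6 CPM without overlap. For miR-99a-5p the ranges were 1303 to 2167 CPM (median 1722) and 1876 to 4423 CPM (median 2609), by 0.75 ± 0.20 (adjusted p = 0.033), and the call was lost without mouse 3335 (0.76, adjusted p = 0.0783). In the progenitor list 2 of 7 rose (28.6%, compared with 6.54% of all 474) and 0 fell (median 0.42). The other called member was miR-196b-5p from the Hoxa locus (0.56 ± 0.13, adjusted p = 0.0232). The most abundant member of the list, miR-10a-5p, did not pass (-0.17 ± 0.35, adjusted p = 0.773).

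Minor arms rose in the let-7 and miR-106b-25 families without a called change of the main arm. Of 9 tested let-7 3p arms 3 rose and 0 fell (median 0.46), compared with 0 of 9 let-7 5p arms (median 0.04). The range of let-7a-1-3p was 22.4 to 42.1 CPM (median 28.9) at month 0 and 34.5 to 152 CPM (median 60.9) at month 6, by 1.10 ± 0.30 (adjusted p = 0.0379). It was 4.87 to 17.1 CPM (median 7.68) and 7.26 to 31.3 CPM (median 23.9) for let-7f-2-3p, by 1.08 ± 0.31 (adjusted p = 0.0488). Both were higher in 6 of 7 mice and lost their calls without mouse 3335 (adjusted p = 0.0853 and 0.0753), whereas let-7b-3p kept it (1.00 ± 0.23, adjusted p = 0.0198, and 0.0406 without that mouse). The most abundant of the 5p arms, let-7i-5p, gave 0.12 ± 0.17 (adjusted p = 0.665), and the most abundant 3p arm, let-7d-3p, 0.15 ± 0.20 (adjusted p = 0.637).

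In the miR-106b-25 cluster, which lies in an intron of the replication gene Mcm7 (chromosome 5, GRCm38.p6, 138165321 to 138165818, minus strand), 2 of 6 tested arms rose and 0 fell, with a median of 0.43. Both were 3p arms. The 2 of 6 are 33.3%, compared with 6.54% higher among all 474. Levels of miR-106b-3p went from 251 to 638 CPM (median 332) to 600 to 1105 CPM (median 760), by 1.18 ± 0.24 (adjusted p = 0.0124). For miR-93-3p the difference was 0.88 ± 0.14 (adjusted p = 0.00613), with 44.2 to 62.8 CPM and 74.2 to 122.1 CPM and no overlap. The main arm miR-93-5p was higher in all 7 mice but did not pass (0.40 ± 0.17, adjusted p = 0.13).

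Over 94 hairpins with both arms tested, 28 had a called arm, and in 22 of these both arms lay on the same side of 0. That share was not counted over all 94 hairpins, so the 22 show nothing particular to those with a called arm. Both arms were called in 3 hairpins (miR-99b, miR-296 and miR-450b), in the same direction each time. These 28 hairpins were counted after the calls were known, as were the clusters given next.

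The strongest decreases of well-known miRNAs included 2 neighbouring hairpins in the imprinted Gnas locus on chromosome 2 (GRCm38.p6, 174267047 to 174267585, minus strand). All 3 of their tested arms fell. The level of miR-298-5p was 13.7 to 23.9 CPM (median 18.9) at month 0 and 3.03 to 6.75 CPM (median 5.18) at month 6, a decrease in all 7 mice without overlap (-1.95 ± 0.20, adjusted p = 0.00101). Levels of miR-296-5p were 17.9 to 100 CPM (median 21.9) and 5.94 to 21.04 CPM (median 16.2), and its decrease of -1.34 ± 0.34 (adjusted p = 0.031) missed the threshold without mouse 3335 (-1.41, adjusted p = 0.0513). The third, miR-296-3p, fell by 1.96 on the log2 scale (SE 0.29, adjusted p = 0.00434).

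Levels of miR-223-3p, the most abundant miRNA of granulocytes and monocytes and a brake on granulocyte activation, were 9419 to 13251 CPM (median 11341) at month 0. They were 3345 to 5204 CPM (median 4653) at month 6, lower in all 7 mice and without overlap, with a log2 fold change of -1.37 ± 0.16 (adjusted p = 0.00101). The other arm, miR-223-5p, was not called (-0.41). The summed level of the 2 was 9622 to 13561 CPM and 3501 to 5368 CPM.

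Among the 6 tested miRNAs of the mature lymphocyte list, which also holds miR-26a-5p and miR-29b-3p, 1 was called. It fell (16.7%, compared with 14.1% called of all 474). Only miR-29b-3p of this list was above 0 (0.07, adjusted p = 0.925). The median was -0.65, and 2 fell without mouse 3335. Called in both was miR-342-3p, at 5141 to 11807 CPM (median 10615) and 3374 to 5338 CPM (median 4092), lower in all 7 mice (-1.04 ± 0.15, adjusted p = 0.00438). The second without mouse 3335 was miR-26a-5p, which had the largest fold change of the list (-1.99 ± 0.74, adjusted p = 0.0965, and -2.47, adjusted p = 0.0124, without that mouse). The most abundant member, miR-150-5p, was lower in all 7 mice too, at 28699 to 58325 CPM and 22473 to 49707 CPM, but did not pass (-0.50 ± 0.18, adjusted p = 0.0869). The pan-hematopoietic marker miR-142a-5p was also lower in 7 of 7 mice and not called (-0.56 ± 0.17, adjusted p = 0.0541). In a PBMC library fewer cells of a type and less of a miRNA per cell cannot be told apart.

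All 7 red cell miRNAs tested had positive fold changes (median 0.79), compared with 247 of all 474. They come from the miR-144 and miR-451a cluster and from miR-486a and miR-486b, so they are not 7 separate observations. Of the 7, 1 was called (14.3%), which is close to the 14.1% called among all 474. The called member, miR-486b-5p, went from 7272 to 36518 CPM (median 13935) to 23523 to 85945 CPM (median 29288), by 1.34 ± 0.36 (adjusted p = 0.0379, and 0.0635 without mouse 3335). It shares most of its sequence with miR-486a, so its reads may be split between the copies. For miR-451a the difference was 0.88 ± 0.49 (adjusted p = 0.25), with 19317 to 190491 CPM and 40258 to 208380 CPM. The 7 miRNAs held 2.88% to 24.4% of all counts at month 0 and 8.35% to 28.5% at month 6, higher in 5 of 7 mice (exact paired permutation p = 0.0938, adjusted p = 0.141 over 6 measures). Taking them and miR-5099 out of the library sizes, and using these sizes without TMM factors, left 60 calls (33 higher, 27 lower), 57 of them among the 67.

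Arms of 2 clusters on the X chromosome fell. In the miR-106a-363 cluster (52741693 to 52742567, minus strand, GRCm38.p6), a copy of the miR-17-92 oncogenic cluster, 3 of 5 tested arms fell and all 5 were below 0. Levels of miR-20b-5p were 356 to 516 CPM (median 403) and 120.8 to 331 CPM (median 236), lower in all 7 mice and without overlap (-0.87 ± 0.18, adjusted p = 0.0152). The others were miR-106a-5p (-0.61 ± 0.16, adjusted p = 0.033) and miR-363-3p (-0.57 ± 0.15, adjusted p = 0.0338, and 0.0574 without mouse 3335). In the miR-17-92 cluster on chromosome 14, 1 of 9 tested arms rose and 0 fell, that being miR-18a-5p (0.53 ± 0.13, adjusted p = 0.0306, and 0.0574 without mouse 3335).

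The second cluster, with miR-322, miR-503, miR-542 and miR-450 hairpins (53047997 to 53054349), had 3 of 10 tested arms lower and 9 of 10 below 0. Levels of miR-450b-3p were 85.8 to 129.4 CPM (median 98.5) at month 0 and 29.8 to 57.3 CPM (median 35.4) at month 6, with no overlap and a decrease in all 7 mice (-1.37 ± 0.15, adjusted p = 0.00101). The other arm miR-450b-5p (-0.85 ± 0.19, adjusted p = 0.0185) and the neighbour miR-450a-1-3p (-1.08 ± 0.18, adjusted p = 0.0066) fell as well. Of 48 tested miRNAs with their 1 locus on the X chromosome, 4 rose and 9 fell (median -0.17), compared with 23 and 23 of 308 on other chromosomes (median 0.06). The miRNAs of these clusters other than miR-450b-3p were chosen after their values were seen.

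Most of the other lower miRNAs of at least 10 CPM were in no list. Levels of miR-455-3p, known from cartilage, were 20.1 to 31.3 CPM (median 26.6) and 3.56 to 12.4 CPM (median 6.73), lower in all 7 mice without overlap (-1.99 ± 0.21, adjusted p = 0.00101). The largest decrease was that of miR-6238 (-2.63 ± 0.37, adjusted p = 0.00431), with 12.8 to 52.7 CPM and 3.56 to 8.29 CPM. Smaller decreases were those of miR-33-3p from an intron of the cholesterol regulator Srebf2 (-1.53 ± 0.28, adjusted p = 0.00885), miR-27a-5p (-1.31 ± 0.30, adjusted p = 0.0188) and miR-574-3p (-1.28 ± 0.15, adjusted p = 0.00127). For miR-27a-5p, 6 of 7 mice were lower, and its abundant other arm miR-27a-3p was at -0.08.

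Levels of miR-26b-5p, a repressor of the Polycomb enzyme EZH2, were 20066 to 36187 CPM (median 33468) and 9137 to 30031 CPM (median 18254), lower in all 7 mice (-0.74 ± 0.20, adjusted p = 0.0387, and 0.0574 without mouse 3335). Further abundant decreases were those of miR-361-5p (-0.53 ± 0.15, adjusted p = 0.0488, and 0.117 without mouse 3335) and miR-467e-5p of the Sfmbt2 cluster (-0.52 ± 0.14, adjusted p = 0.0415, and 0.0903). Of the Sfmbt2 list 1 of 37 rose and 2 fell (median -0.16), whereas 2 rose and 0 fell without mouse 3335 (median -0.10). The list was drawn up by name, so that not every member need lie in the cluster. The 1 that rose with all mice was the low miR-466q (mean 4.75 CPM, log2 fold change 2.15), with its RefSeq locus on chromosome 3.

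Another 3 decreases were those of miR-5099 (-1.61 ± 0.30, adjusted p = 0.00953), miR-3963 (-2.24 ± 0.38, adjusted p = 0.0066) and miR-219a-5p (-1.19 ± 0.22, adjusted p = 0.00885). Their means differed by more than 4 times between the deposited tables, so that these values are uncertain, and miR-219a-5p was at 0.10 in the deposited normalized values. As the most abundant of the lower miRNAs, miR-5099 took 3.37% to 5.99% of all counts at month 0 and 0.736% to 3.63% at month 6, lower in 6 of 7 mice (exact paired permutation p = 0.0312, adjusted p = 0.0625).

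**Figure D2:**
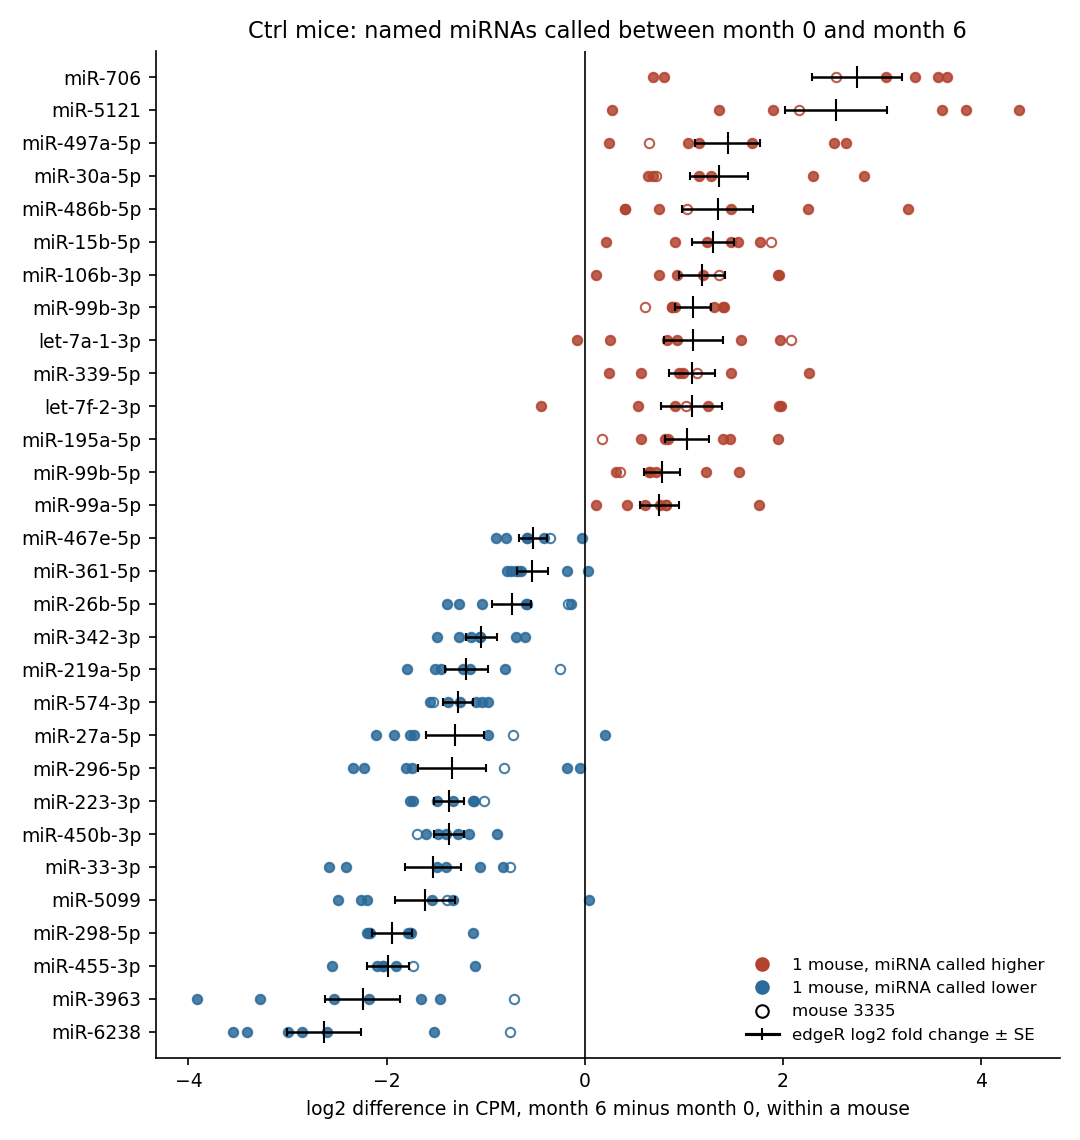
Within-mouse log2 difference in CPM between month 6 and month 0 (horizontal axis) for the 30 called miRNAs named by rule, 1 point a mouse (open for mouse 3335), with the edgeR log2 fold change ± SE as a black bar. Nearly all points of a miRNA lie on 1 side of 0, and the points of miR-5121 are the most widely spread.

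Several lists held no called miRNA. These were the lists for T cell development (8 tested, median -0.39), platelets (6, 0.08), liver (3, -0.23), muscle (3, 0.65), vessel wall (3, 0.24), epithelium (8, 0.14), the miR-29 family (7, 0.07), miR-34 (2, -0.34), the cluster of miR-182, miR-183 and miR-96 (3, 0.41), Dlk1-Dio3 (2, 0.45) and the X-chromosomal cluster of miR-188 and miR-532 (8, -0.10). In the inflammatory list 2 of 11 fell (18.2%, compared with 7.59% of all 474) and 0 rose (median -0.28). Both were low arms, miR-146a-3p (-1.40) and miR-147-5p (-1.26). The most abundant member of this list, miR-21a-5p, was 0.43 ± 0.17 higher and not called (adjusted p = 0.108). In the miR-23, miR-24 and miR-27 family, 1 of 10 fell (median -0.04), and in the cluster of miR-221 and miR-222, 1 of 4 rose (median 0.24), which was miR-221-5p (0.66 ± 0.19, adjusted p = 0.0452, and 0.0871 without mouse 3335).

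The miRNA at the center of the study, miR-126, is abundant in blood stem cells and endothelium. In these Ctrl mice miR-126a-3p was at 94.98 to 459.8 CPM (median 115.9) at month 0 and at 94.2 to 581 CPM (median 187.8) at month 6. Its difference of 0.20 ± 0.52 was within the variation among mice (adjusted p = 0.826) and was -0.15 without mouse 3335. For miR-126a-5p it was 0.41 ± 0.36 (adjusted p = 0.475), with 39.2 to 91.4 CPM and 34.5 to 294 CPM.

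**Figure D3:**
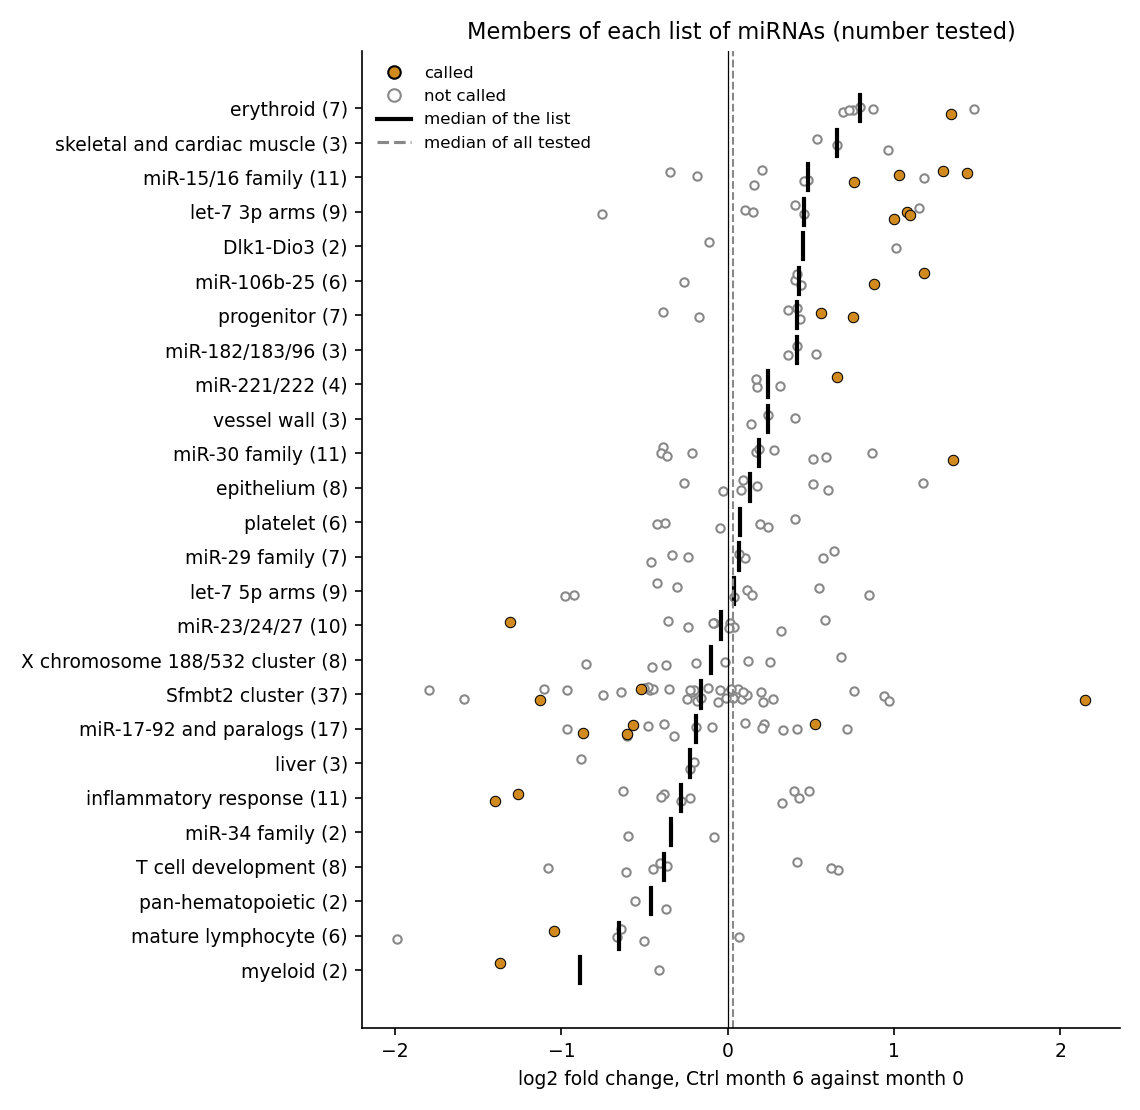
Log2 fold change between month 6 and month 0 (horizontal axis) for each tested member of 26 lists of miRNAs, filled where called, with the median of each list as a black line and that of all 474 tested miRNAs (0.03) as a dashed line. The red cell list lies wholly above 0 with 1 of 7 called, and the myeloid list of 2 has the lowest median.

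To see when the change arose, the other months of the same mice were used. At month 1, after the poly(I:C) course, edgeR called 0 of 476 miRNAs (0%) against month 0, with 46 at an unadjusted p under 0.05. Without the pairing 3 were called, and DESeq2 called 4. Month 6 against month 1 gave 97 calls of 471 (20.6%), 49 higher and 48 lower, of which 48 were among the 67. All 67 had the same sign there, but this comparison shares the month 6 libraries. Leaving out mouse 3335 gave 63 and leaving out mouse 3350 gave 53. The 36 lower miRNAs had a median of -0.02 at month 1 against month 0 and of -1.13 at month 6 against month 1. In contrast, miR-6238 and miR-296-5p fell mostly before month 1, where edgeR called neither. With each mouse left out in turn, miR-6238 was at -2.39 to -1.55 at month 1 against month 0. At month 6 against month 1 it was at -1.13 to -0.59. For miR-296-5p these ranges were -1.462 to -1.001 and -0.17 to 0.11.

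A fit over all 76 Ctrl libraries compared each month with month 0. Calls over 596 miRNAs were 2.18%, 11.2%, 2.52%, 12.9% and 9.56% at months 1 to 5, and 21.3%, 22.3%, 37.1%, 33.7% and 26.3% at months 6 to 10. The 31 higher miRNAs had medians of 0.13, 0.43, 0.26, 0.56 and 0.29 at months 1 to 5, of 1.04 at month 6, and of 0.85, 1.01, 0.99 and 0.97 at months 7 to 10. For the 36 lower miRNAs the medians were 0.01, -0.27, -0.44, -0.46 and -0.17, then -1.18 at month 6, then -1.16, -1.23, -1.28 and -1.21. All these contrasts share the month 0 libraries. From month 7 on, all 31 lay above 0 and all 36 below 0 at each month.

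**Figure D4:**
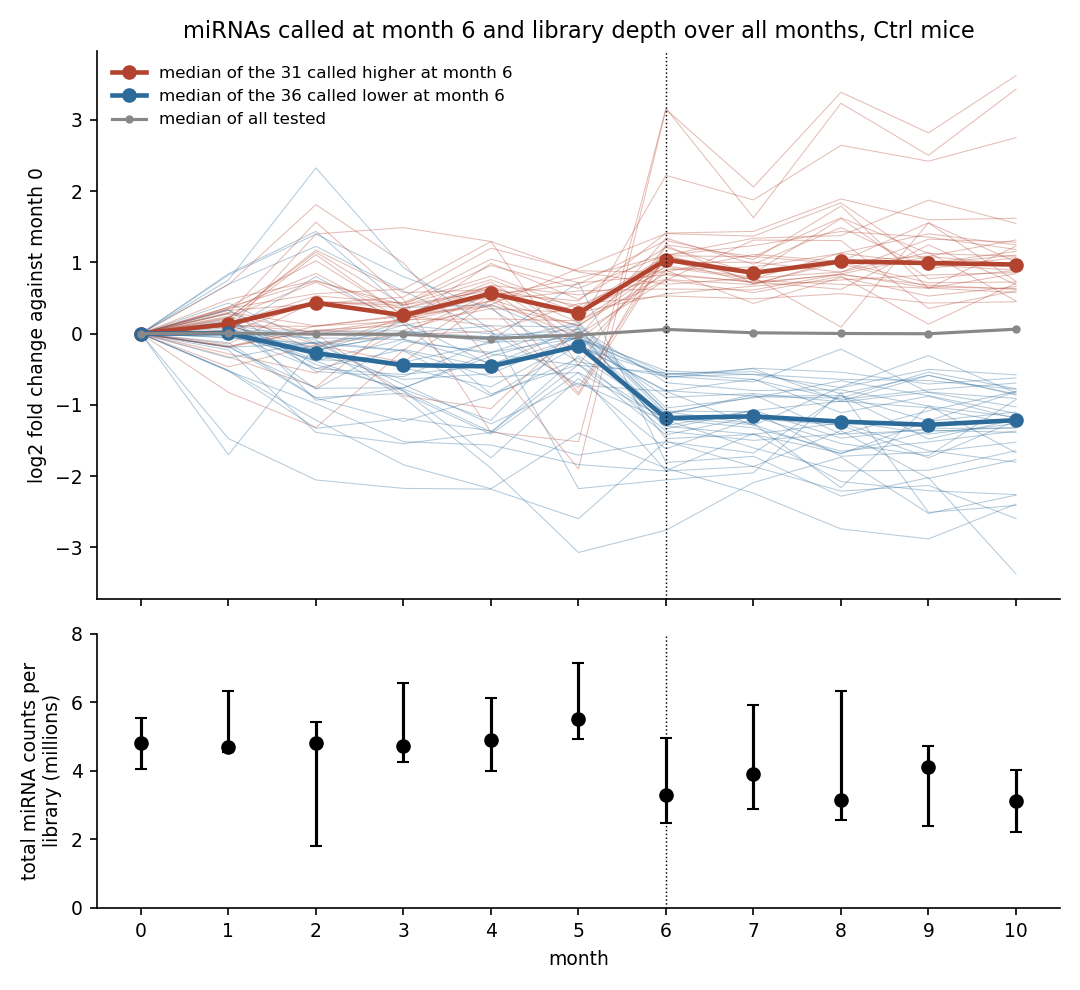
Upper panel, log2 fold change against month 0 at each month (horizontal axis) in Ctrl mice for each of the 67 called miRNAs (thin lines), with the medians of the 31 higher, the 36 lower and all tested miRNAs. Lower panel, median total miRNA counts per library with bars from the lowest to the highest library. Both medians move between months 5 and 6 and stay level to month 10, and median depth is lower from month 6 on.

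Libraries of neither month 0 nor month 6 gave comparisons that shared only the mice. All but the slope over months 1 to 5 and 7 to 10 together were chosen after the step between months 5 and 6 had been seen. That slope was planned before, with earlier results of these data known. In months 7 to 10 against months 1 to 5, 293 of 502 miRNAs were called (58.4%). Of the 31 higher miRNAs 30 were above 0 and 25 were called higher, and of the 36 lower miRNAs 34 were below 0 and 33 were called lower, compared with 27.1% higher and 31.3% lower calls among all tested. None of the 67 was called in the opposite direction. Of the calls 46.4% were higher, and with raw library sizes 62.8% of 301 calls were, with the median of all miRNAs at 0.15. With log2 total count as a covariate 267 were called, 55 of them among the 67. Median depth was 4693796 to 5516140 counts at months 1 to 5 and 3131944.5 to 4121575 at months 7 to 10.

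Month 7 against month 5, again with neither month 0 nor month 6, gave 74 calls of 491 (15.1%), which fell to between 36 and 58 when any 1 mouse was left out (48 without mouse 3335, 39 without 3339, 47 without 3340, 41 without 3342, 36 without 3346 and 43 without 3349). Of the tested miRNAs from the 67, 29 of 30 higher and 33 of 36 lower ones kept their direction, 12 and 14 of them with a call. The exception with a call in the other direction was miR-296-5p, 0.79 higher at month 7 (adjusted p = 0.0391). Within months 7 to 10, edgeR called 0 of 505 slopes per month (0%), with 27 at an unadjusted p under 0.05. Within months 1 to 5, 86 of 535 (16.1%) were called. There the slope was above 0 for 20 of the 31 higher miRNAs, with 10 called rising and 4 called falling. It was below 0 for 28 of the 36 lower miRNAs, with 11 called falling and 0 called rising. The slope over months 1 to 5 and 7 to 10 together was called for 334 of 581 miRNAs (57.5%), 171 rising (29.4%) and 163 falling (28.1%). It rose for 25 of the 31 and fell for 33 of the 36.

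Single miRNAs took different courses. Median miR-15b-5p was between 1788 and 2665 CPM from month 0 to month 5, 4848 CPM at month 6 and between 3449 and 4107 CPM from month 7 on. Similarly, miR-497a-5p had medians of 12.6 to 22.1 CPM up to month 5 and of 40.2 to 49.6 CPM from month 6. For miR-342-3p they were 5937 to 10684 CPM up to month 5 and 2301 to 4388 CPM from month 6. Within months 1 to 5 the slope was called for miR-497a-5p (0.19 per month, adjusted p = 0.0125), but not for miR-15b-5p (adjusted p = 0.444) or miR-342-3p (adjusted p = 0.889). In contrast, median miR-298-5p declined from 19.8 CPM at month 0 through 12.5 CPM at month 1 and 8.18 CPM at month 2 to 5.94 CPM at month 5. Its slope over months 1 to 5 was -0.32 per month (adjusted p = 0.000112), and it was at 3.15 to 5.14 CPM from month 6. The course of miR-706 was uneven, with a median of 3.13 CPM before induction, 6.91 CPM by month 2, 0.76 CPM by month 5 and 22.9 CPM by month 6. It was back at 6.87 CPM by month 7 and at 13.8 to 31.2 CPM after that.

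The 14 libraries were spread over sample groups G1 to G5 and G7, with 1 to 3 libraries a month in the 4 groups that held both months, and no test was made within a group. A fit over all Ctrl libraries with G number as a term called 55 of 596 miRNAs higher and 47 lower at month 6, 57 of them among the 67.

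Finally, the change in Ctrl mice was compared with that in the 5 CM mice with libraries of both months, the leukemia model itself. The interaction of arm and month was called for 0 of 525 miRNAs (0%) by edgeR, with 14 at an unadjusted p under 0.05. No call was made without the block or without mice 3334 and 3335 either, with 30 and 38 at an unadjusted p under 0.05. Of the 31 higher miRNAs 30 were above 0 in CM mice (median 0.65), and of the 36 lower miRNAs 36 were below 0 (median -0.97), whereas 74.3% of all 525 miRNAs lay on the same side of 0 in both arms. Differences between the arms for the 67 ranged from -1.01 to 1.72, with standard errors of 0.20 to 1.01 (median 0.43), so that only large differences could be detected. The 2 of the 67 with an unadjusted p under 0.05 were miR-339-5p, which was at 0.02 in CM mice (difference 1.10 ± 0.46), and miR-676-5p at 0.29 (difference 0.83 ± 0.38), both with an adjusted p of 0.946. Total counts of the CM libraries were 2981522 to 5644830 (median 4125870) at month 0 and 2680369 to 6234743 (median 3232240) at month 6. Median depth was thus lower at month 6 in this arm too, which was not tested.

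**Figure D5:**
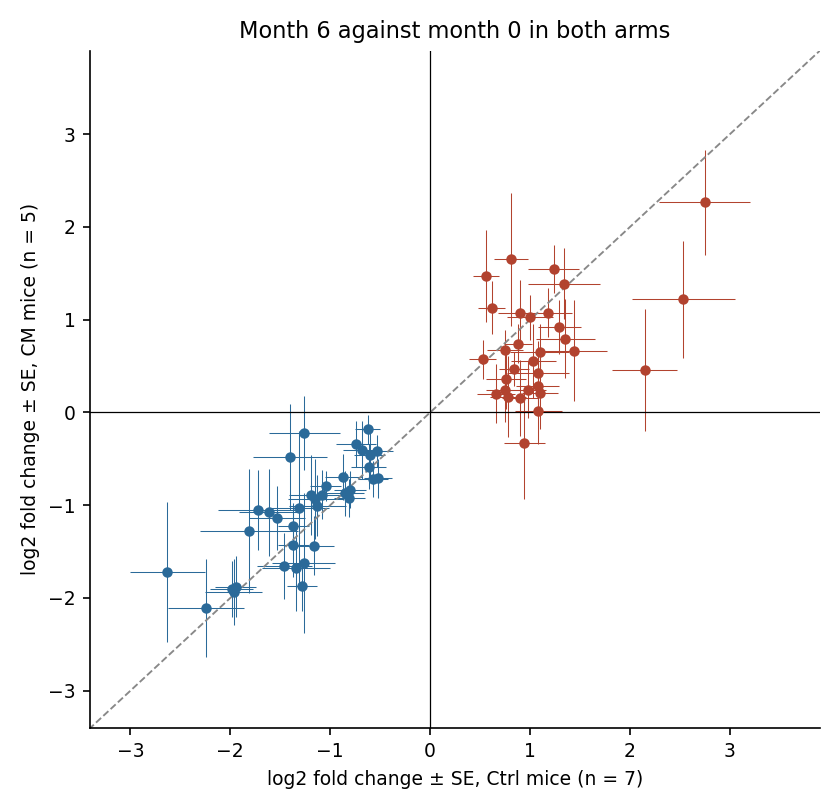
Log2 fold change ± SE between month 6 and month 0 in 7 Ctrl mice (horizontal axis, fit of the 14 Ctrl libraries) and 5 CM mice (vertical axis, fit of both arms) for the 67 miRNAs called in Ctrl mice, red where higher and blue where lower, with a dashed line at equal values. All 36 lower miRNAs lie below 0 in CM mice and 30 of the 31 higher ones above 0.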

How the data were processed

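Small RNA libraries were made from total RNA of PBMC and sequenced. Per the study's methods, the authors trimmed reads, aligned those longer than 16 bases with Bowtie and counted mature miRNAs (miRBase and mm9 in the methods, GRCm38 in the submitters' processing notes, which also name cutadapt, SAMtools and edgeR). The deposited counts are raw reads per mature miRNA (1863 miRNAs). The deposited CPM, used only as an alternative, are a signal that the authors scaled with trimmed mean of M-values (TMM) factors, and all values gave whole reads within 0.1. The training libraries were prepared in randomized batches, per the labels, and the G numbers are not explained.

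The members, lists of miRNAs and comparisons were chosen with earlier results of these data known. Counts were tested with the quasi-likelihood F test of edgeR 4.0.16 in R 4.3.3 (TMM, filterByExpr, mouse as a block, Benjamini-Hochberg (BH) over all tested miRNAs, threshold 0.05). Levels are TMM-scaled CPM, and fold changes are log2 with SE. Within-mouse differences used a prior count of 2. The pairing is by animal, and deviations of a mouse's 2 libraries correlated between -0.13 and 0.15. Without the block 97 miRNAs were called (51 higher, 46 lower). Scripts were tested on simulated data. Named miRNAs were, among called ones with a mean of 10 CPM or more, the 12 largest changes and the 5 most abundant in each direction, miR-126a and the most abundant member of each list. All other miRNAs were named with their values in view. Library measures were tested by exact paired permutation over 128 sign changes. Hairpins within 10 kb on the same strand form a cluster. Each mouse is 1 animal sampled repeatedly. A count of 3 is 0.541 to 1.21 CPM, so that counting error is large for the low miRNAs, with lowest counts of 9 for miR-6238, 10 for miR-298-5p and miR-706 and 11 for miR-455-3p. The month labelled T6p5 was not used here.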

Additional observations from a re-analysis of the deposited data

Results flagged for a closer look

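In 5 of 120 groups of 7 libraries examined (each named miRNA at each month, and 4 library measures) the highest or lowest library stood apart from the other 6 by Dixon's test at the 95% level. Chance flags about 1 in 20 groups. For miR-450b-3p, mouse 3349 was at 129.4 CPM at month 0, compared with 85.8 to 99.9 CPM in the other mice. At month 6, mouse 3342 was at 14603 CPM for miR-10a-5p (others 4495 to 7096) and at 131592 CPM for let-7i-5p (others 54958 to 70417). Mouse 3349 was at 89288 CPM for miR-21a-5p at month 6 (others 128615 to 166472). Mouse 3339 was at 63.9 CPM for miR-194-5p at month 0 (others 535 to 685). None of the 5 belonged to mouse 3335.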

How the results depend on the processing

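The 67 calls (31 higher, 36 lower) became 51 higher and 46 lower without the replicate block, and 10 to 38 higher and 20 to 44 lower when each mouse was left out in turn (30 to 77 in all). They were 55 and 56 with DESeq2, 57 and 47 of 1589 without a filter, 72 and 55 in the fit over all Ctrl libraries, 55 and 47 with G number added there, 67 and 66 with log2 total count added there, and 8 and 14 in the 5 males alone. With log2 total count in the fit of the 14 libraries they were 0 and 0, with 81 at an unadjusted p under 0.05 by edgeR. There were 67 calls with raw library sizes, 64 with the stricter filter, 96 of 585 in limma-trend on the deposited CPM and 84 of 461 on reads recovered from that table (51 higher, 33 lower). The fits with total count and those on recovered reads were chosen after seeing the data. All 67 signs were kept wherever tested, other than in limma-trend, where 63 of 64 were and miR-219a-5p was at 0.10.

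Of 30 named and called miRNAs, 12 (3 higher, 9 lower) kept the call under every alternative other than total count in the fit of 14 libraries, and 8 lost it without mouse 3335. For month 1 against month 0, 0 calls became 3 without the replicate block, 35 without a filter and 4 with DESeq2, and stayed at 0 without any 1 mouse. Leaving out 1 mouse gave 53 to 88 calls for month 6 against month 1, 302 to 333 for the trend, 267 to 294 for months 7 to 10 against 1 to 5 and 36 to 58 for month 7 against month 5. The causes were not tested. Age, poly(I:C) and total count all changed between the months, and cannot be told apart here.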

Other observations

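Among tested miRNAs of at least 100 CPM, 152 in all with a locus in RefSeq, the 16 placed at 2 or more loci spread more between mice than those at 1 locus. The median SD of log2 CPM between the 7 mice of a month was 1.16 for the 16 and 0.35 for those with 1 locus, and the SD was over 1 in 11 of the 16 and in 4 of the others. None of the 16 was called by edgeR, whereas 27 of the others were (19.9%). For example, miR-26a-5p was at 5832 to 59166 CPM at month 0 and 1225 to 58596 CPM at month 6 (-1.99 ± 0.74, edgeR adjusted p = 0.0965, and 0.0124 without mouse 3335). How reads of several loci were assigned is not given in the sources used here, and its part in this spread was not tested.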
